A study of Bos taurus with 6 samples.

Results

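Semaphorins, ephrins, slits and netrins are the ligands of axon guidance, and plexins, neuropilins, Eph receptors and the ROBO and UNC5 proteins are their receptors. Their genes were compared between bEFs (bovine fetal fibroblasts, the cells that build connective tissue) with and without the fat-1 transgene. The members were the genes of the deposited expression table whose symbol begins with SEMA, EFNA, EFNB, SLIT, NTN, PLXN, NRP, EPHA, EPHB, ROBO or UNC5, except for SLITRK symbols. They numbered 61 of the 17663 genes in the table, in 11 name families, with 34 ligand genes and 26 receptor genes. The remaining gene, UNC50, shares the letters UNC5 but encodes a Golgi membrane protein and is not a netrin receptor. The table's own KEGG column placed 55 of the 61 in axon guidance. EPHA4, EPHA10, NRP2, PLXND1, ROBO4 and UNC50 did not carry that entry. Members that were called, that led their family in level or whose call changed with the test were named by rule, and the details given for the others were chosen after their values were seen.

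FT cells came from 3 transgenic fetuses that carried fat-1, a Caenorhabditis elegans gene whose enzyme turns n-6 PUFA into n-3 PUFA. WT cells came from 3 wild-type fetuses of Luxi cattle. All 6 fetuses were 50–60 days old, and both groups were primary cultures made from what was left of the body without head, limbs, viscera and skeleton. A poly(A) library was made from each fetus, so each group has n = 3 libraries, numbered FT_1 to FT_3 and WT_1 to WT_3. The promoter of the transgene, the breed of the FT fetuses and whether they came from 1 founder are not given in the sources used here, so a line difference and the transgene cannot be told apart. The transcript of the transgene was not analysed here. Summed over genes, the FT libraries held 63366834, 48167642 and 54204446 counts and the WT libraries 69777641, 51310741 and 54271927, each in the order of their numbers.

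Semaphorins signal through plexins, and the secreted class 3 forms mostly bind a neuropilin that pairs with a plexin. Ephrins are held on the membrane and activate Eph receptor kinases on a touching cell, slits bind ROBO receptors, and netrins bind UNC5 and DCC family receptors. The same proteins steer migrating cells, set tissue borders and shape vessels outside the nervous system, and mesenchymal cells make many of them.

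FT_1 was unlike the other FT libraries. A typical gene varied by 8.22% between FT_2 and FT_3 beyond counting noise (its biological coefficient of variation), and by 9.97–13.4% in pairs of WT libraries. Between FT_1 and the other FT libraries it was 56.2% and 56.8%, close to the 49.4–65.6% between FT and WT libraries. Among the members that could be tested, 23 of 49 (46.9%) differed over 2-fold between FT_1 and the mean of FT_2 and FT_3, 12 of them higher in FT_1 and 11 lower. The share was 22.2% among all genes tested. FT_2 and FT_3 differed over 2-fold from each other in 4 of the 49 (8.16%), where 4.87% of all genes tested did. Values that rest on FT_1 are given with and without it.

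In FT cells, 21 members rose and 3 fell, out of 49 tested with edgeR on the raw counts. The 21 were 42.9% of those tested, where 10.2% of all 13482 tested genes rose. The 3 were 6.12%, where 8.96% of all genes fell, so the share that fell was near that of all genes. The paper on these same libraries had already listed axon guidance among the upregulated KEGG pathways. The larger share that rose was therefore known beforehand and is not independent support. Called means a p below 0.05, before adjustment, with a change of more than 1 on the log2 scale in either direction. The median log2 fold change of the tested members was 1.10 and that of all tested genes was 0.03. SEMA5A had no read in WT cells. The lowest fold its counts allow, 7.17 on the log2 scale, is still above the median of the members, so using it could not change that median. With limma on log2(FPKM + 1), described below, the medians of members and of all genes were 0.44 and -0.12. With a pseudocount of 0.1 in place of 1 they were 0.50 and -0.15. The edgeR fold change was above 0 for 37 members and below 0 for 12. With limma it was above 0 for 23 of 40, with either pseudocount. With the p of edgeR adjusted over all tested genes by the Benjamini-Hochberg method, 24 members had an adjusted p under 0.05. Of these, 19 that rose and 2 that fell met both thresholds. Over all tested genes, 20.1% were higher and 18.9% lower at that adjusted p, and 8.39% and 7.56% met both thresholds. In whole cultures, fewer or more cells of a type and less or more RNA per cell cannot be told apart.

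Calls fell on ligands and receptors. Of the ligand genes, 29 of 34 could be tested, 13 rose and 2 fell, and of the receptor genes, 19 of 26 could be tested, 8 rose and 1 fell. The median log2 fold change was 1.12 for the ligands and 0.81 for the receptors. With limma on log2(FPKM + 1) these were 0.68 and 0.28. With edgeR and both a replicate block and a length offset, described below, they were 1.15 and 0.26. A gene was tested when its count reached 0.184 CPM, counts scaled to library size, (10 reads at the median depth of the 6 libraries) in at least 3 libraries. A gene that passes through 1 group only has to differ, so the libraries behind each were counted. All 6 libraries were above the minimum for 43 members, of which 19 rose and 3 fell. SEMA5A and EPHA10 passed through FT cells alone. EFNB2 and NTN3 had all 3 FT libraries above the minimum, with 1 and 2 WT libraries, so FT cells were enough for them to pass. EPHB2 had all 3 WT libraries and 1 FT library above it, and SEMA3G had 2 libraries of each group.

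Counts of called members depended on the scale. Without the TMM scaling factors, the median of all genes shifted by -0.15 on the log2 scale, and 1087 genes rose and 1568 fell in place of 1378 and 1208, while 19 members rose and 3 fell. limma on log2(FPKM + 1), a scale that understates the change of genes with low values, tested 40 members with a mean FPKM of at least 0.5. It called 9 higher (SEMA3B, EFNA1, EPHA2, EPHB3, EPHB4, NTNG2, PLXNA1, NRP2 and UNC5B) and 1 lower (EPHA5), all of them also called by edgeR, and 3.77% of all its genes were called higher and 8.38% lower. In the FPKM values as deposited, every FT library was above every WT library for 24 of the 49 members, where this held for 21.8% of all tested genes. Every FT library was below every WT library for 6 members, where this held for 36.9%. Without FT_1, 21 members rose and 4 fell among 50, where 11% and 12.2% of all genes did. Of the members called with 6 libraries, 18 that rose and 3 that fell were called again without FT_1. Of the other calls in that setting, EFNB3 passed the filter through FT cells alone and EPHB2 through WT cells alone, so both had to differ.

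**Figure D1:**
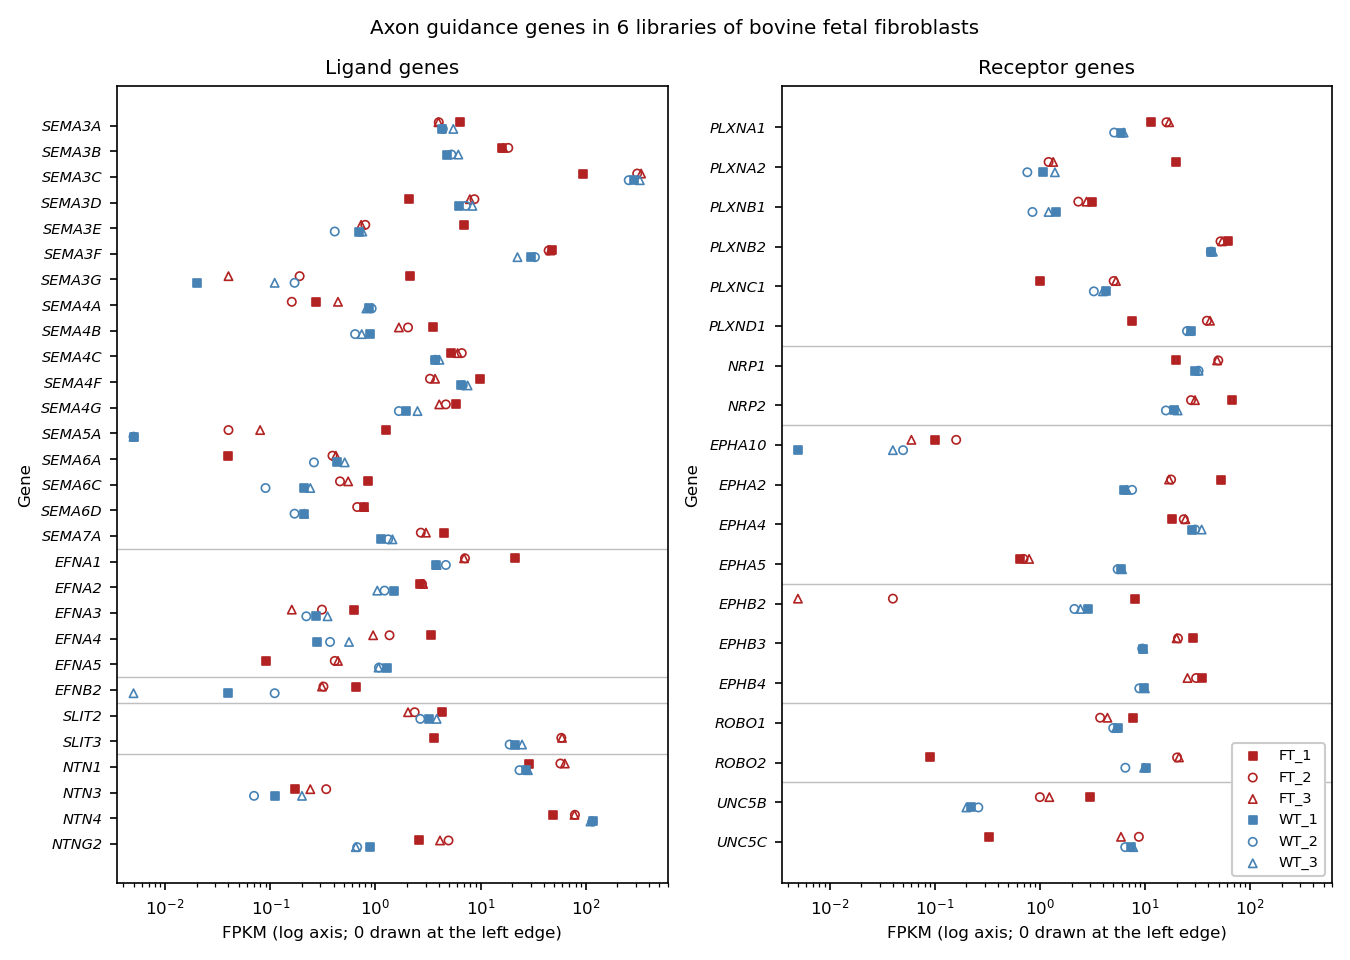
FPKM of the 48 tested guidance genes in each library on a log axis, ligands on the left and receptors on the right, with FT libraries in red, WT libraries in blue and replicate 1 of each group as a filled square. For many genes the filled red square (FT_1) lies apart from the open red symbols (FT_2 and FT_3), as for ROBO2 at 0.09 against 20.2 and 21.0.

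Of the 7 secreted class 3 semaphorins, all tested, SEMA3B was the 1 that rose. SEMA3C, which guides axons and neural crest cells, had the highest FPKM of all members, with 94.4, 308 and 336 in FT_1, FT_2 and FT_3 and 287, 256 and 327 in WT_1, WT_2 and WT_3. FT_1 was the low library, and FT_2 and FT_3 lay within or just above the WT range. The log2 fold change was -0.07 (SE, the standard error, 0.46 and adjusted p = 0.919) with 6 libraries and 0.32 without FT_1. SEMA3C alone made up 45.4, 76.0 and 77.8% of the summed semaphorin FPKM in the FT libraries and 82.1, 79.5 and 84.2% in the WT libraries.

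SEMA3B (ENSBTAG00000010138), a class 3 ligand of neuropilins, had an FPKM of 15.9, 18.3 and 16.4 in FT cells and 4.80, 5.28 and 6.14 in WT cells, in the order of the replicate numbers as in all such lists here. The FT libraries were close together and all above the WT libraries, by 1.80 on the log2 scale (SE 0.13 and adjusted p = 6.88e-04). SEMA3F, which binds NRP2 and lies 68.0 kb from SEMA3B on chromosome 22, was also higher in every FT library, at 47.2, 44.3 and 46.0 against 30.3, 32.9 and 22.4. Its log2 fold change of 0.84 (adjusted p = 0.00753) was under the fold threshold.

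FT_1 stood apart for the other class 3 genes. SEMA3E, the ligand of PLXND1, stood at 6.98, 0.80 and 0.73 in FT cells and 0.69, 0.41 and 0.75 in WT cells. Only FT_1 was high, and the log2 fold change of 2.33 (adjusted p = 0.103) became 0.46 without it. SEMA3G had 475, 32 and 8 counts in the FT libraries and 4, 31 and 21 in the WT libraries, again with FT_1 apart. SEMA3D ran the other way, at 2.08, 8.73 and 7.90 FPKM in FT cells and 6.22, 7.25 and 8.36 in WT cells, and SEMA3A, the classic axon repellent, overlapped at 6.34, 4.0 and 3.97 and 4.26, 4.37 and 5.50. SEMA3E, SEMA3G, SEMA3D and SEMA3A were not called with 6 libraries.

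Membrane-bound semaphorins of classes 4 to 7 were present at lower levels. Their summed FPKM was 32.8, 21.1 and 20.8 in the FT libraries and 16.1, 15.6 and 18.1 in the WT libraries. Of 13 such genes 10 could be tested, and 6 rose and 1 fell. limma on log2(FPKM + 1) called none of the 6 it tested, so that the calls of SEMA7A, SEMA4G, SEMA4B and SEMA4A were lost, and with a pseudocount of 0.1 it called 3 higher and 1 lower. SEMA7A, a semaphorin with a lipid anchor that can bind integrins, was at 4.45, 2.70 and 3.02 in FT cells and 1.14, 1.32 and 1.45 in WT cells and rose by 1.53 (SE 0.23 and adjusted p = 0.00457). All FT libraries lay above all WT libraries for this gene and for the rest of those that rose. SEMA4G rose by 1.39 on the log2 scale and SEMA4B by 1.81. The class 6 genes SEMA6C and SEMA6D, whose proteins bind class A plexins, rose by 1.90 and 2.06, although no library passed an FPKM of 0.84 for either.

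SEMA4B shares its place with a far more abundant gene. CIB1, on the other strand, overlaps it and had 19483 counts summed over the libraries against 1396 for SEMA4B, so the assignment of reads to SEMA4B is uncertain. FT_1 held 376 counts of SEMA5A, FT_2 10 and FT_3 22, and the WT libraries none. Against a floor of 3 counts summed over the WT libraries it was at least 144-fold higher in FT cells, and at least 18.3-fold higher without FT_1. SEMA4A was the semaphorin gene that fell, from 0.87, 0.92 and 0.82 in WT cells to 0.27, 0.16 and 0.44 in FT cells, with a difference of -1.41 on the log2 scale (SE 0.41 and adjusted p = 0.0377). The FPKM of SEMA4C was 5.18, 6.62 and 6.04 in FT cells and 3.68, 3.72 and 4.06 in WT cells, and the difference of 0.80 on the log2 scale missed the fold threshold. SEMA4F and SEMA6A overlapped between the groups, with FT_1 the highest library for SEMA4F (9.86 against 3.30 and 3.69 in FT_2 and FT_3) and the lowest for SEMA6A (0.04 against 0.39 and 0.42).

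Of the semaphorin receptors, 3 of 6 tested plexins and 1 of 2 neuropilins rose. The summed FPKM of the plexins was 104, 116 and 122 in the FT libraries and 82.2, 77.3 and 83.6 in the WT libraries, and that of the neuropilins 86.5, 77.1 and 78.3 and 48.9, 48.1 and 52.8. The groups did not overlap in either sum, and the exact permutation test gave a two-sided p of 0.10 for each, the smallest that 3 libraries against 3 allow. PLXNA1, a partner of neuropilins for class 3 semaphorins, was at 11.4, 16 and 16.9 in FT cells and 5.96, 5.09 and 6.26 in WT cells and rose by 1.52 on the log2 scale (SE 0.18 and adjusted p = 0.00224). PLXNB1, a receptor of class 4 semaphorins, rose by 1.40, from 1.43, 0.85 and 1.21 to 3.12, 2.32 and 2.78 FPKM. PLXNB2, the most abundant plexin, was at 61.0, 52.2 and 54.2 in FT cells and 42.4, 42.3 and 44.2 in WT cells. Every FT library was above every WT library, but the log2 fold change of 0.53 (adjusted p = 0.00548) was under the fold threshold.

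PLXNA2 was called through 1 library. Its FPKM was 19.7, 1.21 and 1.34 in FT cells and 1.06, 0.76 and 1.39 in WT cells, so that FT_2 and FT_3 lay within the WT range. A log2 fold change of 2.93 (SE 1.18) passed on the unadjusted p only (adjusted p = 0.0961) and became 0.43 without FT_1 (adjusted p = 0.114). The call was also lost without WT_1 (adjusted p = 0.228), WT_2 (adjusted p = 0.249) or WT_3 (adjusted p = 0.195), limma gave adjusted p = 0.304, and DESeq2 gave no p for it. PLXND1 and PLXNC1 showed the reverse in FT_1. The FPKM of PLXND1 was 7.45, 38.7 and 41.5 in FT cells and 27.1, 25.1 and 26.6 in WT cells, and that of PLXNC1 1.01, 5.03 and 5.29 and 4.23, 3.26 and 3.98. FT_1 was the lowest of the 6 libraries for both, and neither was called with or without it. PLXNC1 overlaps CEP83 on the other strand, which had 6607 counts over all libraries where PLXNC1 had 6689, so its reads are uncertain too.

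The neuropilins parted in the same library. NRP2 had an FPKM of 66.8, 27.4 and 29.9 in FT cells and 19.0, 15.8 and 20.4 in WT cells. It was higher in each FT library than in any WT library and most of all in FT_1, and the log2 fold change of 1.32 (adjusted p = 0.0308) was 0.81 without FT_1, below the fold threshold. NRP1, the larger of the neuropilin transcripts in WT cells, was at 19.7, 49.8 and 48.5 in FT cells and 29.9, 32.3 and 32.3 in WT cells. FT_1 lay below and FT_2 and FT_3 above the WT libraries, with a log2 fold change of 0.48 (adjusted p = 0.318).

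Over all receptors the summed FPKM had a mean of 329.6 ± 16.9 for FT and 218 ± 10.9 for WT (SD, n = 3), a ratio of 1.51 with an exact permutation p of 0.10. That of the ligands was 532 ± 179.7 and 527 ± 36.2 (exact permutation p 1.0), and semaphorins and netrins are the largest ligand families in the stacked plot of each library.

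**Figure D2:**
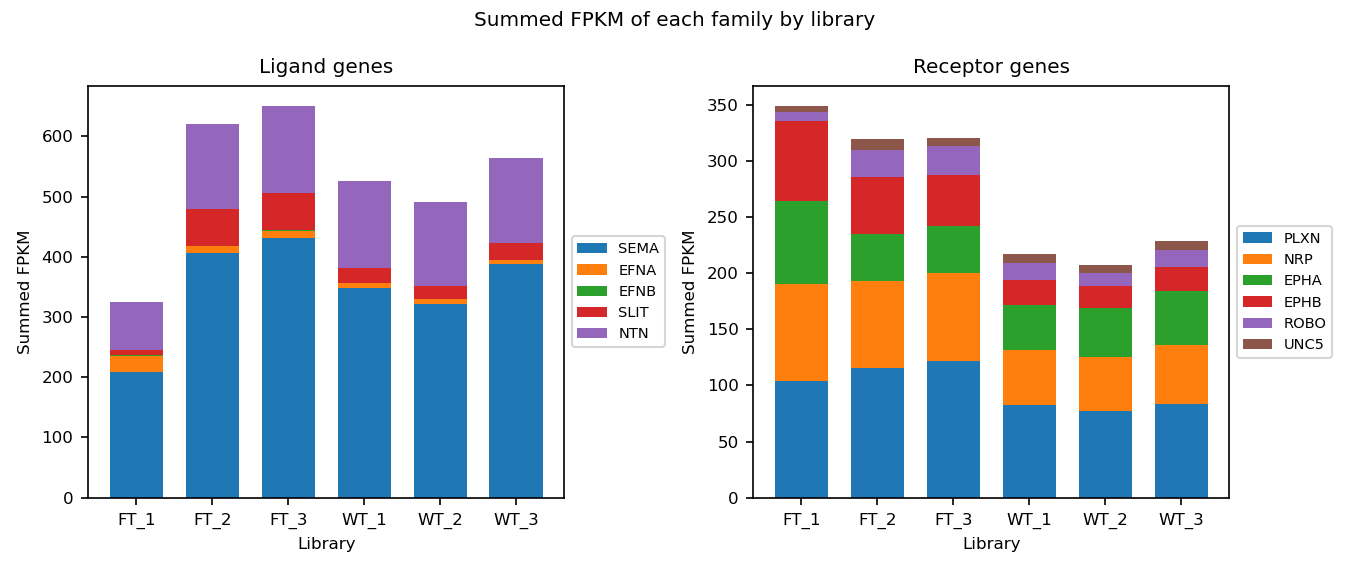
Summed FPKM of the members of each family in each library, with ligand families stacked on the left and receptor families on the right. The receptor total is 319–349 in the FT libraries and 207–229 in the WT libraries, whereas the ligand total of FT_1 (326) is below all WT libraries and those of FT_2 and FT_3 (621 and 651) are above them.

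Of the 3 tested EPHB receptors, 2 rose. EPHB4, the receptor of ephrin-B2 in vessel formation, was at 35.0, 30.6 and 25.3 in FT cells and 9.70, 8.82 and 9.97 in WT cells, and EPHB3 at 28.3, 20.6 and 20.0 and 9.57, 9.40 and 9.63. Both were higher in every FT library. EPHB4 (ENSBTAG00000003446) rose by 1.83 on the log2 scale (SE 0.13 and adjusted p = 6.88e-04) and EPHB3 (ENSBTAG00000005313) by 1.42 (SE 0.14 and adjusted p = 0.00133). The summed EPHB level was 71.6, 51.2 and 45.3 in the FT libraries and 22.1, 20.4 and 22.0 in the WT libraries, with a mean of 56.1 ± 13.8 (SD, n = 3) against 21.5 ± 1.0 and an exact permutation p of 0.10.

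Of the 4 tested EPHA receptors, 1 rose and 1 fell, and the median of the family was 0.82 with edgeR over these 4 and -0.48 with limma over 3, without EPHA10. Over those 3 the edgeR median is the value of EPHA4 and also below 0. EPHA2 (ENSBTAG00000000815), a receptor of ephrin-A1 found on many epithelia, was at 52.2, 17.7 and 16.9 in FT cells and 6.36, 7.53 and 6.70 in WT cells. It was higher in all FT libraries, with FT_1 far above the rest, and rose by 2.23 on the log2 scale (SE 0.47 and adjusted p = 0.0133), or by 1.51 without FT_1. EPHA5 (ENSBTAG00000009438), a receptor of ephrin-A ligands best known from neurons, fell from 5.95, 5.49 and 6.05 in WT cells to 0.65, 0.70 and 0.79 in FT cells. All FT libraries were alike and all below the WT libraries, with a difference of -2.86 on the log2 scale (SE 0.13 and adjusted p = 5.23e-04). EPHA4, which binds both ephrin classes and was the most abundant EPHA gene in WT cells, was lower in every FT library at 18.2, 23.4 and 24.2 against 27.9, 30.0 and 34.6, with a log2 fold change of -0.33 (adjusted p = 0.131) that did not pass. EPHA2 made up 71.1, 42.2 and 40.3% of the summed EPHA level in FT libraries and 15.8, 17.5 and 14.1% in WT libraries, and EPHA4 24.8, 55.7 and 57.6% and 69.3, 69.6 and 72.9%. EPHA10, a receptor without an active kinase, had at most 24 counts in any library and was not called.

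EPHB2 was split within the FT group. It had 2059, 8 and 0 counts in the FT libraries and 796, 436 and 524 in the WT libraries, or 8.11, 0.04 and 0 and 2.86, 2.13 and 2.43 FPKM. FT_1 was above every WT library, while FT_2 and FT_3 held next to no EPHB2. With 6 libraries its log2 fold change was 0.27 (SE 1.93 and adjusted p = 0.923), and -6.77 without FT_1, where it passed the filter through WT cells alone.

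Of the 5 ephrins of the A class, 3 rose and 1 fell. EFNA1, which binds EPHA2, was at 21.4, 7.10 and 6.96 in FT cells and 3.78, 4.67 and 3.82 in WT cells. All FT libraries were above the WT libraries, and the log2 fold change of 1.68 (adjusted p = 0.0344) was 0.95 without FT_1, just under the fold threshold. EFNA2 was even across FT libraries, at 2.65, 2.77 and 2.84 against 1.49, 1.22 and 1.04, and rose by 1.29 (SE 0.20 and adjusted p = 0.00480). EFNA4 was at 3.38, 1.36 and 0.95 in FT cells and 0.28, 0.37 and 0.56 in WT cells and rose by 2.36, or by 1.67 without FT_1. EFNA1, EFNA3 and EFNA4 lie side by side on chromosome 3, 39.2 and 11.5 kb apart in the table. The build of these cattle coordinates is unknown, since the processing notes name mm8, a mouse build. EFNA3, between the other 2, had a top FPKM of 0.62 and was not called (log2 fold change 0.53, adjusted p = 0.479).

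EFNA5, an ephrin that repels axons, fell from 1.3, 1.08 and 1.07 in WT cells to 0.09, 0.41 and 0.44 in FT cells. FT_1 was the lowest, and all FT libraries were below the WT libraries. Its log2 fold change of -1.70 (SE 0.59 and adjusted p = 0.0647) passed on the unadjusted p only, and the call was lost without WT_1 (adjusted p = 0.169), WT_2 (adjusted p = 0.146) or WT_3 (adjusted p = 0.139). EFNB2, the ligand of EPHB4, had 116, 44 and 47 counts in the FT libraries and 9, 16 and 0 in the WT libraries. It rose by 3.17 on the log2 scale (SE 1.10 and adjusted p = 0.0646) from a level near 0, the call was lost without WT_1 (adjusted p = 0.200), and without WT_2 the value was 4.26. The summed ephrin level was 28.8, 12.6 and 12 FPKM in the FT libraries and 7.16, 7.67 and 6.84 in the WT libraries, and that of the Eph receptors 145, 93.1 and 87.3 and 62.4, 63.5 and 69.4 (exact permutation p 0.10 for each).

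**Figure D3:**
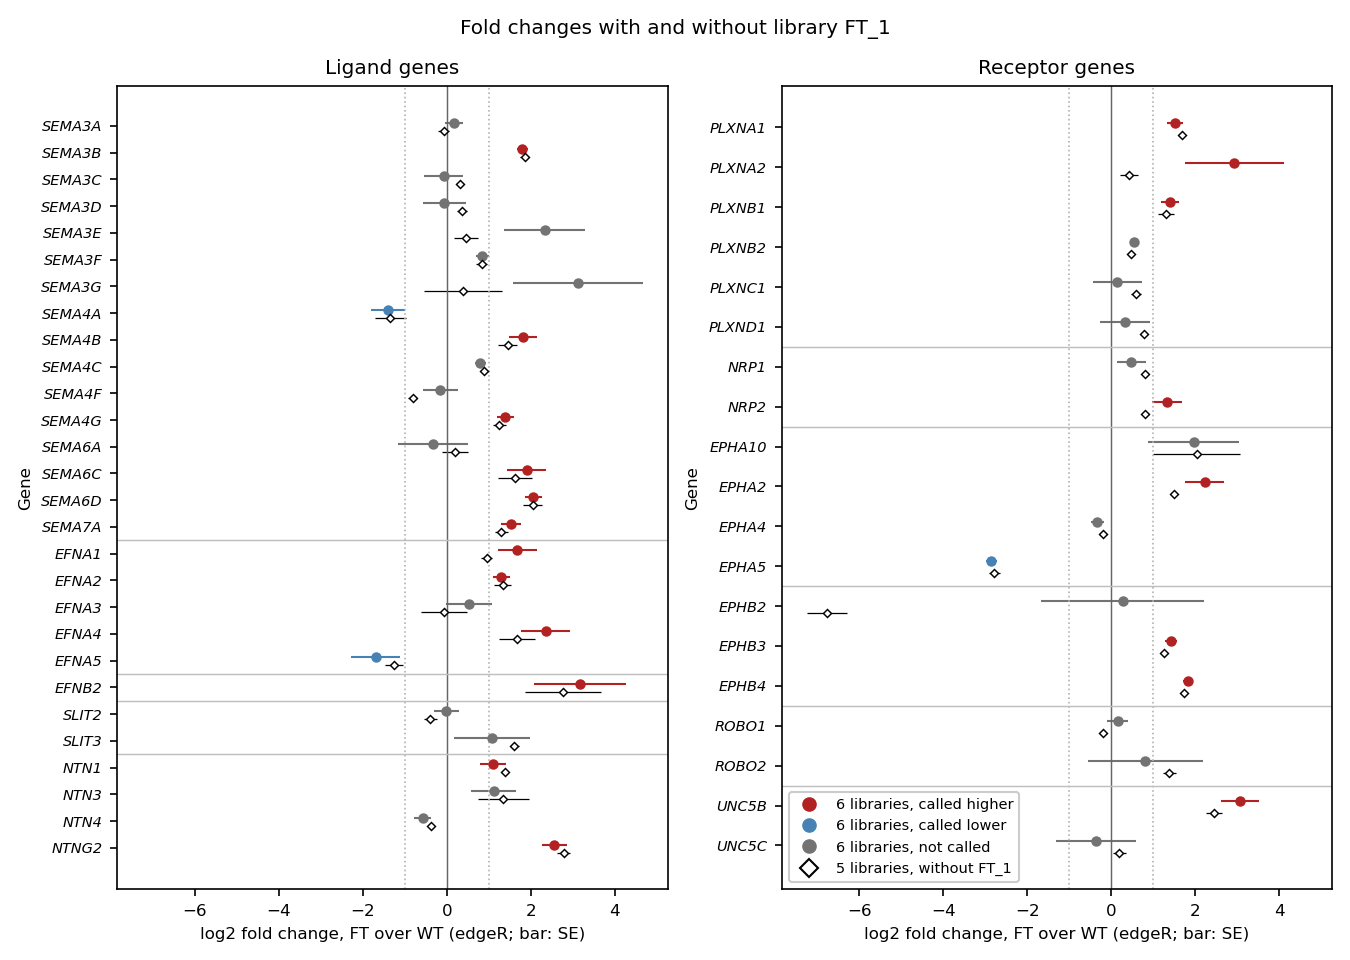
The log2 fold change of FT over WT cells by edgeR for 47 tested guidance genes, with all 6 libraries (circles, red or blue where called) and without FT_1 (open diamonds); bars are 1 standard error and dotted lines the fold threshold. SEMA5A is left out because it had no read in WT cells. EPHB2 moves from 0.27 to -6.77 and PLXNA2 from 2.93 to 0.43 without FT_1, while EPHB4 moves from 1.83 to 1.73 and EPHA5 from -2.86 to -2.78.

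Of the 4 tested netrins and the 2 tested UNC5 receptors, 2 and 1 rose. NTN1, the netrin that attracts commissural axons, was at 29.1, 57.4 and 63.2 in FT cells and 26.8, 23.4 and 28.2 in WT cells. FT_1 was close to the WT libraries, and FT_2 and FT_3 were well above them. The log2 fold change was 1.10 (SE 0.30 and adjusted p = 0.0321), 1.38 without FT_1, and under the fold threshold at 0.99 without FT_2, 0.88 without FT_3 and 0.94 without the scaling factors. NTN4, a basement membrane netrin and the most abundant of the family, was lower in every FT library at 49.3, 78.9 and 78.1 against 117, 115 and 111, and its log2 fold change of -0.57 (adjusted p = 0.0668) did not pass. NTN1 made up 35.8, 40.5 and 43.4% of the summed netrin level in the FT libraries and 18.5, 16.8 and 20.1% in the WT libraries.

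NTNG2, a netrin G that is tied to the membrane and binds no UNC5 receptor, was at 2.58, 4.95 and 4.11 in FT cells and 0.88, 0.67 and 0.65 in WT cells. It was above the WT range in each FT library and rose by 2.56 on the log2 scale (SE 0.29 and adjusted p = 0.00190). NTN3 had at most 37 counts in any library and was not called. UNC5B (ENSBTAG00000014270), a netrin receptor of vessels, was at 2.98, 1.0 and 1.23 in FT cells and 0.22, 0.26 and 0.20 in WT cells and rose by 3.07 (SE 0.46 and adjusted p = 0.00428), or by 2.45 without FT_1. UNC5C, the main UNC5 gene of WT cells, was at 0.33, 8.74 and 5.91 in FT cells and 7.37, 6.48 and 7.73 in WT cells. FT_1 was nearly without it, and FT_2 and FT_3 lay around the WT range (log2 fold change -0.36, adjusted p = 0.792). UNC50 was lower in all FT libraries, at 7.71, 9.01 and 8.17 against 12.6, 10.8 and 10.6, and was not called (log2 fold change -0.29, adjusted p = 0.0869).

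The FT libraries parted for slits and their receptors. SLIT3 (ENSBTAG00000017746), the main slit in all libraries but FT_1, was at 3.59, 58.5 and 59.5 in FT cells and 21.5, 18.9 and 24.8 in WT cells, and ROBO2 (ENSBTAG00000010462) at 0.09, 20.2 and 21.0 and 10.3, 6.50 and 9.80. FT_2 and FT_3 were above and FT_1 below every WT library for both genes. FT_1 held 26 counts of ROBO2, where FT_2 held 4272 and FT_3 5015. With 6 libraries the log2 fold change was 1.07 for SLIT3 (SE 0.90 and adjusted p = 0.383) and 0.81 for ROBO2 (SE 1.37 and adjusted p = 0.671). Without FT_1 both were called higher, SLIT3 at 1.61 (adjusted p = 9.31e-07) and ROBO2 at 1.39 (adjusted p = 4.51e-05). SLIT2 was at 4.26, 2.36 and 2.04 in FT cells and 3.23, 2.67 and 3.82 in WT cells, and ROBO1, some 1051 kb from ROBO2 on chromosome 1, at 7.62, 3.74 and 4.39 and 5.48, 4.98 and 5.30. Here FT_1 was the highest of the 6 libraries and FT_2 and FT_3 were the lowest, and neither gene was called. The median of the ROBO genes, 0.48 with edgeR, was -0.17 with limma, and that of the slits was 0.53 and 0.01.

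**Figure D4:**
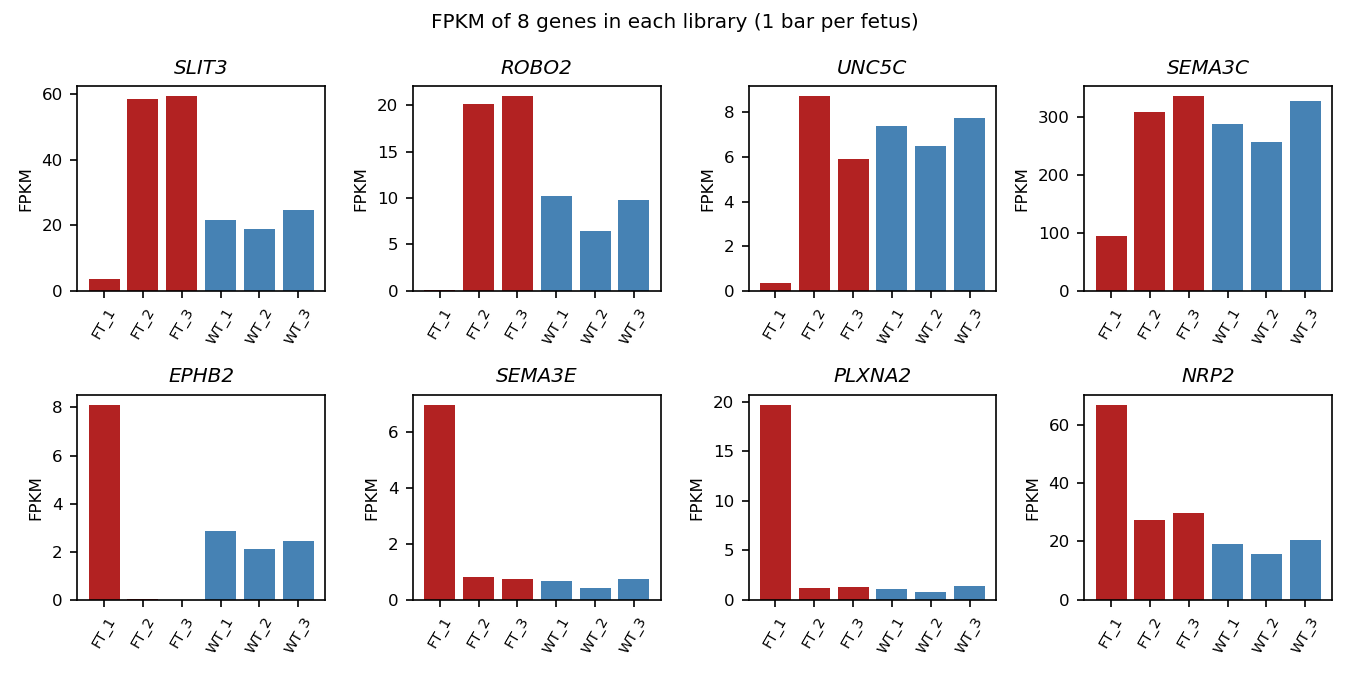
FPKM of 8 members in each library, 1 bar per fetus, FT in red and WT in blue. The genes were picked after their values were seen, to show members that set FT_1 apart. SLIT3, ROBO2, UNC5C and SEMA3C are lowest in FT_1, and EPHB2, SEMA3E, PLXNA2 and NRP2 are highest in FT_1.

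The 12 members that were not tested had reads above the minimum in fewer than 3 libraries, and most of their reads came from FT_1. UNC5D had 474 counts in FT_1 and none elsewhere, although an unnamed gene on the other strand (ENSBTAG00000005639) overlaps it and makes this count uncertain. EPHA1 had 496, 0 and 4 counts in FT cells and 12, 3 and 10 in WT cells, and SEMA4D 133, 8 and 4 and 8, 4 and 0. PLXNA4 had 68 and EPHB6 56 counts, all in FT_1, and SEMA6B had 96, 0 and 0 in FT cells and 26, 0 and 9 in WT cells. EFNB3 was the reverse, with 51 counts in FT_2 and 62 in FT_3 and none in FT_1 or in WT cells. Over a floor of 3 counts in WT cells EFNB3 was at least 39.9-fold higher in FT cells, or 64.5-fold without FT_1. Without FT_1 it passed the filter through FT cells alone, so it had to differ, and its call is 1 of the 21 that rose without FT_1. SEMA5B had 20 counts in all, EPHA7 6, and EPHA3, NTNG1 and ROBO4 4 each.

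Ligands and co-receptors outside the rule were listed by their known roles. Of 14 other guidance ligands 12 were in the table, 8 could be tested, 4 rose and 1 fell. Among all tested genes 10.2% rose and 8.96% fell. The repulsive guidance molecule gene RGMA was at 2.68, 1.72 and 1.47 FPKM in FT cells and 0.37, 0.32 and 0.48 in WT cells and rose by 2.47 on the log2 scale (adjusted p = 0.00254). FLRT3, a membrane ligand of UNC5 receptors, rose by 2.58, or 1.71 without FT_1, from 2.92, 2.78 and 3.05 to 30.2, 8.74 and 8.23 FPKM. NELL2, a ROBO3 ligand, rose by 2.69, or 1.65 without FT_1. WNT5B rose by 1.15 and was under the fold threshold without FT_1 (0.91) or WT_3 (0.99). The chemokine gene CXCL12 had an FPKM of 52.1, 55.3 and 48.6 in WT cells and 11.4, 26.9 and 24.0 in FT cells, a log2 fold change of -1.16, or -0.86 without FT_1. Both groups were apart, and FT_1 was the lowest library. FLRT2, the most abundant gene of this list in FT cells, where CXCL12 was in WT cells, was at 84.8, 45.6 and 49.1 in FT cells and 37.9, 29.8 and 43.3 in WT cells and was not called (log2 fold change 0.85, adjusted p = 0.050).

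Of 25 co-receptors and partners 22 were in the table, 16 could be tested and 4 rose, where 10.2% of all tested genes rose. The proteoglycan gene GPC1 rose by 1.46 on the log2 scale (adjusted p = 0.00168). The other calls were lost without FT_1, at 1.38 and 0.96 for the proteoglycan gene SDC1, 1.14 and 0.98 for the hedgehog receptor gene PTCH1, and 1.0 and 0.41 for NEO1. NEO1, the netrin and RGM receptor related to DCC, was at 33.0, 12.7 and 12.8 FPKM in FT cells and 10.9, 10.4 and 11 in WT cells, and its call was also lost without WT_1 (adjusted p = 0.200), WT_2 (adjusted p = 0.212) or WT_3 (adjusted p = 0.192). DCC itself, the best known netrin receptor, had at most 0.03 FPKM in any library. ITGB1 was the most abundant partner gene, at 512, 576 and 589.7 in FT cells and 427, 418 and 392 in WT cells.

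Of 61 cytoplasmic effectors listed, 59 were in the table, 57 could be tested, 5 rose and 3 fell, with a median log2 fold change of 0.23. Both shares were below those over all tested genes (10.2% and 8.96%), so the counts set this list apart in neither direction. MYL9, a myosin light chain gene, rose by 1.85 (adjusted p = 5.23e-04), from 144, 144 and 155 in WT cells to 504, 466 and 461 FPKM in FT cells. The cofilin phosphatase gene SSH1 rose by 1.46. PAK6, a kinase gene, rose by 2.31, or 1.52 without FT_1. DPYSL4, of the collapsin response mediator family, was at 6.66, 0.98 and 1.10 FPKM in FT cells and 0.07, 0 and 0.05 in WT cells and rose by 6.18, 4.70 without FT_1 and 6.77 without WT_1. It had 13, 0 and 8 counts in the WT libraries, so FT cells were enough for it to pass the filter. The exchange factor gene VAV3 had a log2 fold change of -2.13, and the actin-binding ABLIM1 of -3.52, or -4.23 without FT_2. TIAM1, an activator of RAC1, had an FPKM of at most 0.16 in any library and passed the filter through WT cells alone. Its log2 fold change of -3.27 was -2.64 without FT_1 and -6.98 without FT_3, and its call was lost without FT_2 (adjusted p = 0.162), WT_1 (adjusted p = 0.167), WT_2 (adjusted p = 0.152) or WT_3 (adjusted p = 0.212). Cofilin (CFL1) was the most abundant, at 864, 1025 and 997 in FT cells and 917, 1029 and 947 in WT cells.

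The fibroblast label was checked against its markers. All 10 could be tested, and 2 rose and 2 fell. For this list and the marker lists below, the shares over all tested genes were 10.2% that rose and 8.96% that fell. Lists with few tested genes are too short to be set against these shares. The summed FPKM of the fibroblast markers was 6918, 18482 and 18181 in the FT libraries and 17882, 17339 and 17445 in the WT libraries, with FT_1 the lowest. FBLN1, a matrix glycoprotein gene, was at 163, 1581 and 1565 in FT cells and 178, 160.3 and 196 in WT cells. FT_1 lay within the WT range, and FT_2 and FT_3 were far above it. FBLN1 was called at 2.80 on the log2 scale, or 3.31 without FT_1, and without WT_2 the value was 2.73 and the call was lost (adjusted p = 0.133). DCN and LUM, chosen after their values were seen, were called higher without FT_1 (1.01 and 1.37) and not with it (0.72 and 0.92). PDGFRA rose by 1.06, or 0.89 without FT_1, where the call was lost. Vimentin (VIM), the most abundant in WT cells and second to DCN in FT_1 and FT_2, was at 1244, 3850.2 and 4171 in FT cells and 7891, 8178 and 7312 in WT cells. All FT libraries were below all WT libraries, FT_1 the most. The log2 fold change of -1.17 was -0.79 without FT_1, where the call was lost at the fold threshold. The call of VIM was also lost without FT_2 (adjusted p = 0.125), WT_1 (adjusted p = 0.194), WT_2 (adjusted p = 0.204) or WT_3 (adjusted p = 0.174). DPT had a log2 fold change of -1.51, and its call was lost without FT_3 (adjusted p = 0.126), WT_1 (adjusted p = 0.177), WT_2 (adjusted p = 0.179) or WT_3 (adjusted p = 0.156).

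Neuron markers in the table, other than TUBB3, were at most 0.58 FPKM in any library. Of 10 listed 6 were in the table, and NEFL, NEFM, STMN2 and ELAVL3 had an FPKM of at most 0.06. The sum, mostly TUBB3, was 2.14, 1.63 and 2.12 in the FT libraries and 2.88, 3.91 and 3.35 in the WT libraries. TUBB3 was lower in every FT library, at 2.03, 1.24 and 1.54 against 2.74, 3.74 and 3.19. It was called lower without FT_1 (-1.03) and not with it (-0.85, adjusted p = 0.0384). SYT1, the other gene tested, was at 0.07, 0.39 and 0.58 in FT cells, where FT_1 lay below every WT library, and 0.12, 0.09 and 0.13 in WT cells. It was called at a log2 fold change of 1.80, or 2.28 without FT_1, and the call was lost without FT_2 (adjusted p = 0.187), FT_3 (adjusted p = 0.262), WT_1 (adjusted p = 0.214), WT_2 (adjusted p = 0.246) or WT_3 (adjusted p = 0.194). Schwann cell and neural crest markers, 4 of 6 in the table, summed to 13.1, 5.91 and 4.31 in FT libraries and 9.14, 9.48 and 9.95 in WT libraries, nearly all S100B. S100B and ERBB3 were tested and not called, and FOXD3 was at most 0.05.

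Keratins and MSLN were highest in FT_1. The 5 epithelial markers summed to 340.2, 14.8 and 15.0 FPKM in the FT libraries and 10.2, 7.92 and 14.2 in the WT libraries. Of 4 tested, KRT5, KRT14 and CLDN4 were called higher, where 10.2% of all tested genes were. CDH1, the fourth, chosen after its values were seen, made up most of the WT sum, at 36.3, 7.11 and 8.41 in FT cells and 10.0, 7.83 and 13.9 in WT cells. It was not called, with all libraries (0.85 on the log2 scale) or without FT_1 (-0.28). KRT5, the most abundant in FT_1, was at 172, 2.57 and 1.63 in FT cells, KRT14 at 128, 1.76 and 1.11 and EPCAM at 0.57, 0 and 0, and all 3 were at 0 in each WT library. CLDN4, a tight junction gene, was even across FT libraries at 3.65, 3.39 and 3.82, above 0.20, 0.09 and 0.33 in WT cells, and rose by 4.22 on the log2 scale, or 4.23 without FT_1. Of 7 mesothelial markers 6 were in the table, and MSLN, KRT8 and KRT18 were called higher of 4 tested. UPK3B, the fourth, chosen after its values were seen, was at 1.03, 0.10 and 0.09 in FT cells and 0.20, 0.25 and 0.25 in WT cells, high in FT_1 and below every WT library in FT_2 and FT_3. It was not called, with all libraries (0.94 on the log2 scale) or without FT_1 (-1.06). KRT8 and KRT18, like KRT5 and KRT14, had no read in WT cells and passed the filter through FT cells alone, so these 4 had to differ, and CLDN4 and MSLN are the calls left without them. The mesothelial markers summed to 301, 46.4 and 47.1 in the FT libraries and 2.35, 3.48 and 3.34 in the WT libraries. KRT8, KRT18 and KRT19 of this list are also made by other epithelia. MSLN, the most abundant, was at 199, 44.9 and 46.2 in FT cells and 2.08, 3.18 and 3.06 in WT cells and rose by 5.26 on the log2 scale, or 4.21 without FT_1. WT1, which marks mesothelium, was at 0 in all FT libraries and at most 0.05 in WT cells. Without WT_1, WT_2 or WT_3 the calls of KRT14 (adjusted p = 0.132, adjusted p = 0.132 and adjusted p = 0.127) and KRT8 (adjusted p = 0.141, adjusted p = 0.142 and adjusted p = 0.137) were lost. EPHA2, EFNA1, PLXNA2, SEMA3E, EPHA1 and UNC5D, picked after their values were seen, were highest in the same library. So were other members, among them NRP2, EPHB2, SEMA3G, SEMA5A, EFNA4, EFNB2, UNC5B, SEMA4F, SEMA4D, SLIT2 and ROBO1. Among the tested members, 12 were over 2-fold higher in FT_1 than in FT_2 and FT_3, and 11 were lower. The part of epithelial or mesothelial cells in the values of members was not tested.

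Smooth muscle and pericyte markers, 9 listed and all tested, summed to 2509, 3864 and 3736 FPKM in the FT libraries and 1171, 1141 and 1273 in the WT libraries. Of the 9, 4 rose and 1 fell, where 10.2% of all tested genes rose and 8.96% fell. Cultured fibroblasts also make several of these markers. ACTA2, the most abundant in all libraries but WT_2, was at 1372, 2421 and 2378 in FT cells and 549.8, 503 and 627 in WT cells. The contractile genes ACTG2 and CNN1 rose by 4.69 and 3.05, and CSPG4 fell by 1.63 on the log2 scale. MYH11 was at 0.07, 1.58 and 1.46 in FT cells and 0.15, 0.12 and 0.18 in WT cells, so that FT_2 and FT_3 were above and FT_1 below every WT library. It was called at 2.93, and the call was lost without FT_2 (adjusted p = 0.152), FT_3 (adjusted p = 0.146), WT_1 (adjusted p = 0.180), WT_2 (adjusted p = 0.191) or WT_3 (adjusted p = 0.163). RGS5, a pericyte gene chosen after its values were seen, was at 0.03, 8.49 and 7.88 in FT cells and 5.15, 4.21 and 4.96 in WT cells. As for SLIT3 and ROBO2, FT_2 and FT_3 were above and FT_1 below every WT library. PDGFRB, also chosen after its values were seen, had this order too, at 22.8, 96.7 and 107 in FT cells and 58.1, 49.9 and 57.0 in WT cells. It was called higher without FT_1 (1.06 on the log2 scale) and not with it (0.63). CSPG4 was at 2.46, 3.21 and 3.19 in FT cells and 11.3, 10.0 and 9.39 in WT cells, lower in all FT libraries. NOTCH3, chosen after its values were seen, was at 1.13, 0.82 and 0.89 and 1.06, 0.91 and 1.14, which overlapped. TAGLN, chosen in the same way, was higher in every FT library at 695, 799 and 715 against 504, 524 and 533, and was not called. The order of SLIT3 and ROBO2 was not particular to this list. The fibroblast genes DCN, LUM and COL1A1 had it too, with DCN at 1803, 4092 and 3769 in FT cells and 2299, 2054 and 2227 in WT cells. The part of any cell type in the values of SLIT3 and ROBO2 was not tested.

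Markers of 4 further cell types were low. Too few genes of each were tested to set against the 10.2% of all tested genes that rose and 8.96% that fell. Endothelial markers, 8 of 9 in the table, summed to 7.11, 0.86 and 1.04 FPKM in the FT libraries and 2.97, 1.99 and 2.06 in the WT libraries, led by ERG. Of 4 tested, ERG and PECAM1 were called lower without FT_1 and not with it. The log2 fold change of ERG turned from 1.22 to -1.10 without FT_1, and that of PECAM1 went from -1.51 to -2.49. CDH5, KDR, CLDN5 and EMCN were at most 0.10 FPKM in any library. Myoblast markers, 2 of 5 in the table, summed to 5.77, 4.60 and 3.78 and 1.13, 1.31 and 1.93. DES, their most abundant gene in FT cells, was at 5.74, 4.01 and 3.17 in FT cells and 0.07, 0 and 0 in WT cells and was called higher, 1 of 2 tested. It had 12 counts in WT_1 and none in WT_2 or WT_3, and passed the filter through FT cells alone. MYF5, the other gene of this list in the table, chosen after its values were seen, was lower in every FT library at 0.03, 0.59 and 0.61 against 1.06, 1.31 and 1.93, and was called lower without FT_1 (-1.09) but not with it (-1.64). Chondrocyte markers, 3 of 4 in the table, summed to 2.29, 0.31 and 0.43 in FT libraries and 0.81, 1.06 and 0.93 in WT libraries, led by SOX9 in the FT libraries and by ACAN in the WT libraries, with COL2A1 at most 0.07, and ACAN fell by 2.26 on the log2 scale, 1 of 2 tested. Immune markers, 4 of 5 in the table, summed to 4.25, 4.12 and 3.52 and 8.06, 6.72 and 7.77, led by CD14, and CD68 fell by 1.24, 1 of 3 tested.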

How the data were processed

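RNA from 3 FT and 3 WT cultures was sequenced as paired-end poly(A) libraries. The submitters' processing notes name Bowtie 0.12.2, HISAT2 2.0 for mapping and StringTie 1.3.0 for expression. The deposited table holds a raw read count per gene and library, which was used as given, and whether counting used the strand is not stated. The deposited FPKM values, fragments scaled to gene length and library size as the authors computed them, were used for levels. A library held 48167642 to 69777641 counts, and floors of 3 counts cover counting error only.

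FT was compared with WT in R 4.3.3 with edgeR 4.0.16 (quasi-likelihood test, TMM scaling, filterByExpr with a minimum count of 10) over the whole table. Benjamini-Hochberg adjustment of p took in all genes tested. limma 3.58.1 on log2(FPKM + 1) with a mean FPKM of at least 0.5 and DESeq2 1.42.0 were run beside it. Sums over families were compared by a two-sided exact permutation test. Other alternatives were RLE scaling, total counts only, no filter, adjusted p, a pseudocount of 0.1, a length offset, a replicate block and leaving out each library. The fits were tested on simulated data.

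Named by rule were called members, the most abundant member of each family and members whose call differed between edgeR and limma. Of each other list, the rule took up to 4 called genes per direction with the smallest p and the gene with the highest mean FPKM over the 6 libraries. Listed were other guidance ligands, co-receptors and partners, cytoplasmic effectors, and markers of fibroblasts, neurons, Schwann cells and neural crest, endothelium, mesothelium, smooth muscle and pericytes, epithelium, skeletal myoblasts, cartilage and immune cells. The members and lists were chosen with earlier results of these data known. Sequences were not used, since none came with the data.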

Additional observations from a re-analysis of the deposited data

How the results depend on the processing

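The count of 21 members that rose became 9 with limma, and also 9 with limma and no filter on low FPKM. The count of 3 that fell became 1 in each of those. With the other alternatives 15–23 rose and 2–4 fell, and none of the 24 called members turned its direction under those of the 18 alternatives that tested it. SEMA3B, EPHB3, EPHB4, EPHA2, EPHA5, NTNG2, PLXNA1 and UNC5B were called under all of them, and the other called members fell short under at least 1. Over the 49 tested members, 755 of the values under alternatives were on the same side of the thresholds with the same sign, 51 lost and 11 gained a call, and 47, all of members that were not called with 6 libraries, had the other sign.

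Those values, as log2 fold changes, follow by alternative. With limma they were ROBO2 -0.28, EPHB2 -0.71, PLXNC1 -0.18, PLXND1 -0.17, ROBO1 -0.050 and SEMA3A -0.0032, and limma with no filter gave the same values. With a pseudocount of 0.1 they were ROBO2 -1.02, EPHB2 -2.39, PLXNC1 -0.32, PLXND1 -0.20, ROBO1 -0.067 and SEMA3A -0.0074. Without scaling factors PLXNC1 was -0.012. With the length offset, which allows for a trend of fold change with transcript length, they were PLXNC1 -0.037 and ROBO1 -0.079. With a replicate block as a term they were ROBO2 -0.0033, EPHB2 -4.14 and PLXNC1 -0.13, and with block and length offset together ROBO2 -0.15, EPHB2 -4.27, PLXNC1 -0.31, PLXND1 -0.21 and ROBO1 -0.15. The cause was not tested.

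With 1 library left out at a time, the sign of some log2 fold changes turned, most often without FT_1. The value with 6 libraries, in parentheses, and the lowest and highest value with 1 left out were for SEMA3C (-0.068) -0.37 to 0.32, EFNA3 (0.53) -0.072 to 0.87, EPHB2 (0.27) -6.77 to 0.85, PLXNC1 (0.15) -0.18 to 0.60, PLXND1 (0.32) -0.027 to 0.78, ROBO1 (0.15) -0.20 to 0.34, SEMA3A (0.17) -0.069 to 0.30, SEMA3D (-0.056) -0.37 to 0.36, SEMA4F (-0.15) -0.82 to 0.11, SEMA6A (-0.33) -0.74 to 0.19, SLIT2 (-0.012) -0.39 to 0.18 and UNC5C (-0.36) -1.03 to 0.19. The cause was not tested.

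The replicate numbers name different fetuses, so pairing was not assumed. The correlation across genes between deviations of FT and WT libraries with the same number was -0.001, -0.02 and 0.018, and genes are not independent replicates. With the replicate block 20 members rose and 3 fell. The tested members had a median relative length of 1.74, where all tested genes had 1.01, and the rank correlation of relative length with fold change was 0.19 over 12023 genes and 0.043 over the 40 members with a length. With the length offset 20 members rose and 3 fell. The 12 untested members had reads above the minimum in fewer than 3 libraries, and the part of depth in this was not tested. For members near 0 in WT cells, such as SEMA5A and EFNB2, the fold is a lower bound or has a wide error. With 3 fetuses per group and 1 FT library apart, small differences often cannot be told from spread between fetuses. Members under the fold threshold whose adjusted p still passed with edgeR were PLXNB2, SEMA3F and SEMA4C. For each of them, every FT library was above every WT library.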
